A study of Mus musculus with 15 samples.

Results

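Transcripts of 10 transcription factor genes that direct the trophectoderm and its trophoblast descendants were followed in mouse ESCs as OCT4, the product of *Pou5f1*, was removed. The 10 genes (*Cdx2*, *Gata3*, *Gata2*, *Hand1*, *Gcm1*, *Eomes*, *Elf5*, *Tfap2c*, *Tfap2a* and *Dlx3*) were taken by name from 48709 genes counted by RNA-seq in 15 libraries, and all 10 passed the filter on low counts in CreER. CreER ESCs (mixed 129SV and C57BL/6 background, genotype Oct4Fl/-, with a CAG-driven CreER) were sampled before and at 12, 18, 24 and 36 h of 500 nM 4OHT, with 2 replicates at each time. O4AID ESCs (129SV, ZHBT background, Oct4-/-, with TetOFF Oct4, CAG Oct4AID and CAG Tir1) were sampled before and at 1.5, 6, 10 and 24 h of 500 µM IAA, with 1 library at each time. In CreER the drug activates a recombinase that cuts out the only functional *Pou5f1* allele, and in O4AID the auxin IAA sends a degron-tagged OCT4 protein to the proteasome. All cells were grown feeder-free on gelatin in serum-free N2B27 with the MEK inhibitor PD03, the GSK3 inhibitor Chiron and LIF, and every O4AID group also received doxycycline to keep the untagged Oct4 transgene silent. In the paper's qRT-PCR and western blot courses of Oct4Fl/- ESCs, 4OHT came with a change to medium with serum and LIF. Whether the RNA-seq course of CreER had that change is not stated in the paper. Counted reads per library ranged from 21.7 to 30.8 M in CreER and from 40.5 to 48.7 M in O4AID.

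The trophectoderm is the outer epithelium of the blastocyst and the source of the trophoblast cells of the placenta. In outer cells of the embryo, nuclear YAP acts with TEAD4 to switch on *Cdx2* and *Gata3*, while OCT4 and CDX2 are known to repress each other. *Cdx2*, *Eomes* and *Elf5* then sustain trophoblast stem cells, whereas *Hand1*, *Gata2*, *Gcm1* and *Dlx3* are best known for differentiated trophoblast such as giant cells, syncytiotrophoblast and labyrinth. The AP-2 factors *Tfap2c* and *Tfap2a* are trophoblast factors with other sites of action, *Tfap2c* in naive pluripotent and germ cells and *Tfap2a* in surface ectoderm and neural crest.

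Upstream sequences were read from RefSeq for GRCm38.p6, which held a start site for 7 of the 10 genes (10 windows, since *Gata2*, *Elf5* and *Tfap2a* have 2 starts each). Each window was the 250 bases before a start site. Both strands were searched for 5 motifs spelled out as letters: the OCT octamer ATGCAAAT, the TEAD motif CATTCC, the AP-2 motif GCCNNNGGC, the GATA motif AGATAA and the CDX motif CATAAA. The 4 windows printed here are those of *Cdx2*, which held the octamer that OCT4 is known to bind, of *Gata3*, which held the most matches, and of *Gcm1* and *Eomes*, which held none and whose transcripts followed different courses in O4AID. Each is written 5′ to 3′ on the gene's own strand, with motif matches in capitals. They lie at chr5:147307250-147307499 (*Cdx2*, minus strand), chr2:9878601-9878850 (*Gata3*, minus), chr9:78051708-78051957 (*Gcm1*, plus) and chr9:118477939-118478188 (*Eomes*, plus). The last 21 bases of the *Cdx2* window lie within its first counted exon, and the *Gata3* start lies 11434 bases inside the gene as counted.
*Cdx2*: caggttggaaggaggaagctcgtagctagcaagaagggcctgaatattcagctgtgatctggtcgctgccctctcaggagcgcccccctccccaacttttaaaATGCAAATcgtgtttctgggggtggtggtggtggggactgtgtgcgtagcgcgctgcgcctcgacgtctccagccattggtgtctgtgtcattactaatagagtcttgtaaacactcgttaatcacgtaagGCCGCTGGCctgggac
*Gata3*: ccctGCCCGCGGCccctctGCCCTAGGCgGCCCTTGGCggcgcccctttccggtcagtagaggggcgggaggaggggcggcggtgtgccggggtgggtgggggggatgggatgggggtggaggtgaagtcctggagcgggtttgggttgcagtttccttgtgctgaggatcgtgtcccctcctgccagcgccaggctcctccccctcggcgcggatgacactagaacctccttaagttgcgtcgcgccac
*Gcm1*: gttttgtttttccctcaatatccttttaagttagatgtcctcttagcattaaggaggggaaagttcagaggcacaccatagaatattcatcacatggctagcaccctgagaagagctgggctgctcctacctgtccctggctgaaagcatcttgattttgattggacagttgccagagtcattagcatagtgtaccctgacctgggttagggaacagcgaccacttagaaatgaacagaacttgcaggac
*Eomes*: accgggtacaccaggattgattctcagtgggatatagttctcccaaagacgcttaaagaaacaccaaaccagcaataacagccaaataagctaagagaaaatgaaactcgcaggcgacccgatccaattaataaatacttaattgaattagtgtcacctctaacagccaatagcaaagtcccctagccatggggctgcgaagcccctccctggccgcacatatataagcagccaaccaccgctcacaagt
The *Cdx2* octamer began 147 bases before the start site, and an AP-2 match began 16 bases before it. An octamer was present in 1.60% of 32851 mouse windows of this length and in 1 of the 10 windows here. AP-2 letters were found in 3 of the 10 windows, of *Cdx2*, *Gata2* and *Gata3*, against 13.7% of all windows. Those of *Gata3* began 246, 231 and 221 bases before its start site without overlapping. TEAD letters were found in 2 of the 10 windows (of *Gata2* and *Elf5*, against 12.6% of all windows). CDX letters were found in 2 (of *Elf5* and *Tfap2a*, against 10.8%) and GATA letters in 0 (against 9.99%). A match here describes the letters of a window and was not tested as a binding site.

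*Pou5f1* mRNA (chromosome 17, 35506018-35510772, plus strand, GRCm38) fell in CreER. It had 327 ± 3.91 CPM (reads scaled to library size by TMM within the line; SD, n = 2) before 4OHT and 121 ± 8.59 after 36 h, a log2 fold change of -1.43 (SE 0.045, edgeR quasi-likelihood adjusted p = 4.15e-19). In O4AID, where the protein is the target, reads counted to *Pou5f1* stood at 712, 815, 684, 670.1 and 609 CPM at 0, 1.5, 6, 10 and 24 h. Those cells are Oct4-/- with CAG Oct4AID, and the counts do not separate transgene reads from reads of the native gene. The O4AID values are therefore not a measure of the native gene alone. The naive ESC markers *Nanog*, *Zfp42*, *Klf4*, *Esrrb*, *Tfcp2l1*, *Tbx3*, *Nr0b1* and *Dppa5a* summed to 2052 to 2086 CPM in the untreated CreER libraries and 1993 to 2062 in those of 36 h. In O4AID the sum was 5650 CPM before IAA and 1511 after 24 h. By edgeR, 2 of the 8 rose and 4 fell in CreER by 36 h, where 19.4% of all genes were called higher and 17.2% lower. In the single O4AID libraries of 0 and 24 h, 8 of the 8 had a log2 ratio of CPM plus 1 of -1 or lower. Of all genes with at least 10 reads over both libraries, 2.42% were that low. In these bulk libraries, more cells of a type and more RNA per cell cannot be told apart. No library of either line was kept without drug for the same time, so time and drug cannot be told apart in these libraries. The paper's qRT-PCR of eGFP-AID ESCs given IAA tied neither falling pluripotency genes nor rising trophectoderm markers to IAA or TIR1. That line is not among the libraries used here. Nothing in the labels says that the CreER replicates were separate cultures, so p-values measure the spread between these libraries, which may be technical.

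The first question was when the trophectoderm factors responded to loss of the *Pou5f1* gene. After 12 h of 4OHT, 0 of the 10 genes were called, and 6, 8 and 9 of them had risen after 18, 24 and 36 h. A call was an adjusted p under 0.05 over the 18969 genes tested, of which 0.258%, 4.73%, 11.0% and 19.4% were called higher at those 4 times. At 12 h, 3 genes (*Gata2*, *Gcm1* and *Tfap2c*) had an unadjusted edgeR p under 0.05, as did 8.69% of all genes tested. DESeq2 called 0 at 12 h, with no adjusted p for 2 of the 10. Leaving out 1 library moved the number of genes called over the whole table by more than 1.5 times at 12, 18 and 24 h, as given with the alternatives. *Hand1*, *Gcm1*, *Dlx3*, *Eomes*, *Gata2* and *Tfap2c* were called from 18 h, *Cdx2* and *Gata3* from 24 h and *Elf5* at 36 h, and *Tfap2a* was not called at any time. None of the 10 was called lower by edgeR or DESeq2 at any of these times. DESeq2 gave 2, 3 and 2 of the 10 no adjusted p at 12, 18 and 24 h, so those could not be called. Over all genes, 49 of 75, 897 of 1616, 2084 of 4089 and 3686 of 6948 edgeR calls were higher and the rest lower. Of the 10, 0 were lower at an unadjusted edgeR p under 0.05. Over all genes, 1649, 4181, 6294 and 8455 passed that limit in either direction. Over the 10 genes the median log2 fold change was 0.16, 0.67, 1.00 and 1.69 in order of time, beside medians over all genes of 0.00, 0.01, 0.01 and 0.01.

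**Figure D1:**
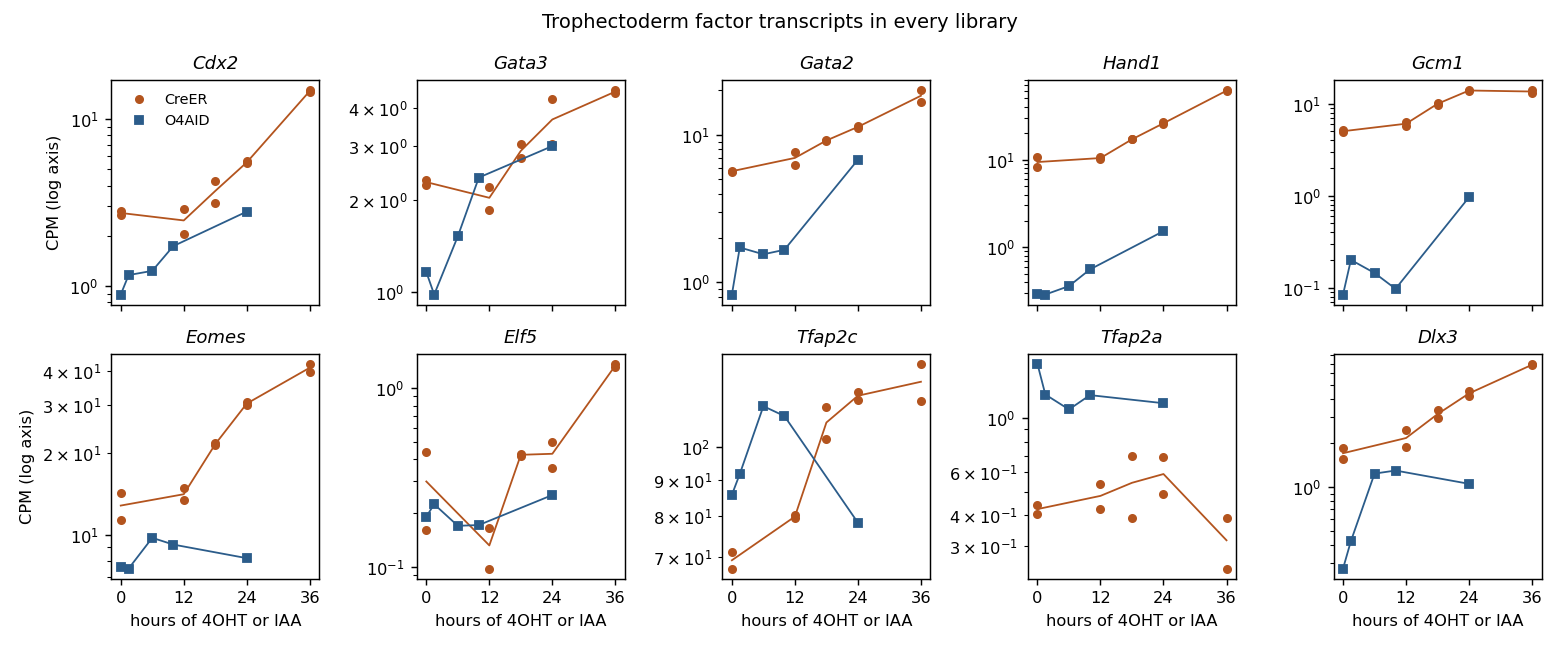
CPM of each gene (log axis, each panel with its own range) against hours of 4OHT in CreER (circles, 2 replicates, line through the mean) or IAA in O4AID (squares, 1 library a time), scaled within each line. *Hand1* climbs from 8.15 and 10.6 CPM to 59.6 and 62.0 in CreER, while *Gcm1* and *Tfap2c* flatten after 24 h and *Tfap2c* in O4AID peaks at 6 h.

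Among the stem cell factors, *Cdx2* (ENSMUSG00000029646, chromosome 5, 147300805-147307270, minus strand), the homeodomain factor that maintains trophectoderm identity, rose late and steeply. Replicates 1 and 2 had 2.81 and 2.67 CPM before 4OHT, 2.05 and 2.89 after 12 h, 4.29 and 3.14 after 18 h, 5.43 and 5.58 after 24 h, then 14.5 and 14.9 after 36 h. The 12 h libraries straddled those of 0 h, and from 18 h both libraries lay above both 0 h libraries. Log2 fold changes of 0.43 (SE 0.18, edgeR adjusted p = 0.138), 1.01 (SE 0.16, adjusted p = 3.83e-05) and 2.43 (SE 0.14, adjusted p = 1.24e-13) followed for 18, 24 and 36 h. By 24 h, *Cdx2* had covered 23.1% of its 36 h change in CPM.

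*Eomes* (ENSMUSG00000032446, chromosome 9, 118478212-118486132, plus strand), a T-box factor needed for trophoblast stem cells, started higher and climbed more evenly. In the same order its replicates had 14.3 and 11.3, then 13.4 and 14.8, 21.7 and 21.3, 30.7 and 30.0, and finally 42.4 and 39.8 CPM. The 0 h and 12 h libraries overlapped and every later library lay above them. Its edgeR log2 fold change came to 0.76 by 18 h (SE 0.088, adjusted p = 1.21e-06) and 1.69 by 36 h (SE 0.082, adjusted p = 3.21e-15), with 62.0% of the 36 h change in CPM reached by 24 h.

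*Elf5* (ENSMUSG00000027186, chromosome 2, 103411688-103450989, plus strand), an ETS factor of trophoblast stem cells whose promoter is known to be methylated in ESCs, was barely detected. It was counted by 4 and 13 reads before 4OHT, then 3 and 4, 11 and 12, 11 and 13, and finally 34 and 27 reads. The groups overlapped up to 24 h and the 36 h libraries lay above all others. By 36 h the log2 fold change was 2.09 (SE 0.38, edgeR adjusted p = 7.29e-05). Leaving out the second untreated library raised it to 3.03, and leaving out the first lowered it to 1.60.

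*Hand1* (ENSMUSG00000037335, chromosome 11, 57828705-57832818, minus strand), a bHLH factor that drives giant cell differentiation, had the largest fold change of the 10 genes at 36 h. In order of time its replicates had 10.6 and 8.15, 10.1 and 10.7, 17.0 and 17.0, 25.3 and 26.5, and 59.6 and 62.0 CPM. Libraries of 0 h and 12 h overlapped, and each later pair lay above the one before it. Log2 fold changes for 18, 24 and 36 h were 0.87 (SE 0.094, edgeR adjusted p = 4.28e-07), 1.48 (SE 0.088, adjusted p = 1.49e-12) and 2.71 (SE 0.082, adjusted p = 3.07e-19). Like *Cdx2*, it covered a minority of its 36 h change by 24 h, 32.2%.

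*Gcm1* (ENSMUSG00000023333, chromosome 9, 78051958-78065624, plus strand), the factor that commits cells to syncytiotrophoblast, rose early and then levelled off. Its replicates went from 4.89 and 5.14 CPM through 5.79 and 6.33, 9.74 and 10.2, and 13.9 and 13.8 to 14.1 and 13.0. Both libraries lay above both 0 h libraries at each time, and those of 24 h fell between those of 36 h. Its rise was already 0.99 on the log2 scale after 18 h (SE 0.11, edgeR adjusted p = 6.41e-07), and the 24 and 36 h values were 1.47 (SE 0.10) and 1.43 (SE 0.11).

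The GATA factors, which act partly in parallel in trophoblast, differed in size of change. *Gata2* (ENSMUSG00000015053, chromosome 6, 88193891-88207032, plus strand) had 5.62 and 5.72 CPM before 4OHT, then 7.70 and 6.24, 9.04 and 9.27, 11.4 and 11.2, and 16.7 and 20.2. Successive times did not overlap, and its edgeR log2 fold change was 0.69 by 18 h (SE 0.12, adjusted p = 0.000395) and 1.69 by 36 h (SE 0.11, adjusted p = 1.72e-12). *Gata3* (ENSMUSG00000015619, chromosome 2, 9857078-9890034, minus strand) had 2.25 and 2.33 CPM, then 2.21 and 1.86, 3.04 and 2.75, 4.29 and 3.04, and 4.46 and 4.57. Its 24 h replicates were the furthest apart of its pairs, and one of them met the 18 h level. For *Gata3* edgeR gave a log2 fold change of 0.69 by 24 h (SE 0.18, adjusted p = 0.006) and 0.98 by 36 h (SE 0.18, adjusted p = 8.23e-05). The 24 h call ended with DESeq2 (0.67, adjusted p = 0.0611) and without replicate 1 of 24 h (0.40, edgeR adjusted p = 0.236), and in the other alternatives adjusted p was 0.00217 to 0.034.

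*Dlx3* (ENSMUSG00000001510, chromosome 11, 95120119-95125296, plus strand), a homeobox factor of the placental labyrinth, rose steadily. Its replicates held 46 and 46 reads before 4OHT, then 58 and 59, 76 and 96, 140 and 109, and 169 and 143. In CPM both libraries lay above both 0 h libraries at every time, and edgeR put the log2 fold change at 0.90 by 18 h (SE 0.19, adjusted p = 0.00221) and 2.02 by 36 h (SE 0.17, adjusted p = 1.22e-10). The 18 h call ended without replicate 2 of 0 h (0.78, edgeR adjusted p = 0.0604), and in the other alternatives adjusted p was 0.000334 to 0.0491.

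The AP-2 factors parted. *Tfap2c* (ENSMUSG00000028640, chromosome 2, 172549593-172558622, plus strand) was already abundant, with 71.1 and 67.4 CPM before 4OHT, then 80.3 and 79.4, 114 and 103, 120 and 117, and 131 and 116. It rose by 18 h (log2 fold change 0.65, SE 0.056, edgeR adjusted p = 2.05e-08), and 89.8% of its 36 h change in CPM was reached by 24 h. *Tfap2a* (ENSMUSG00000021359, chromosome 13, 40715675-40733823, minus strand) held 6 to 20 reads in the CreER libraries, and its log2 fold change at 36 h was -0.45 (SE 0.49, edgeR adjusted p = 0.52). No change of *Tfap2a* was detectable at this depth.

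**Figure D2:**
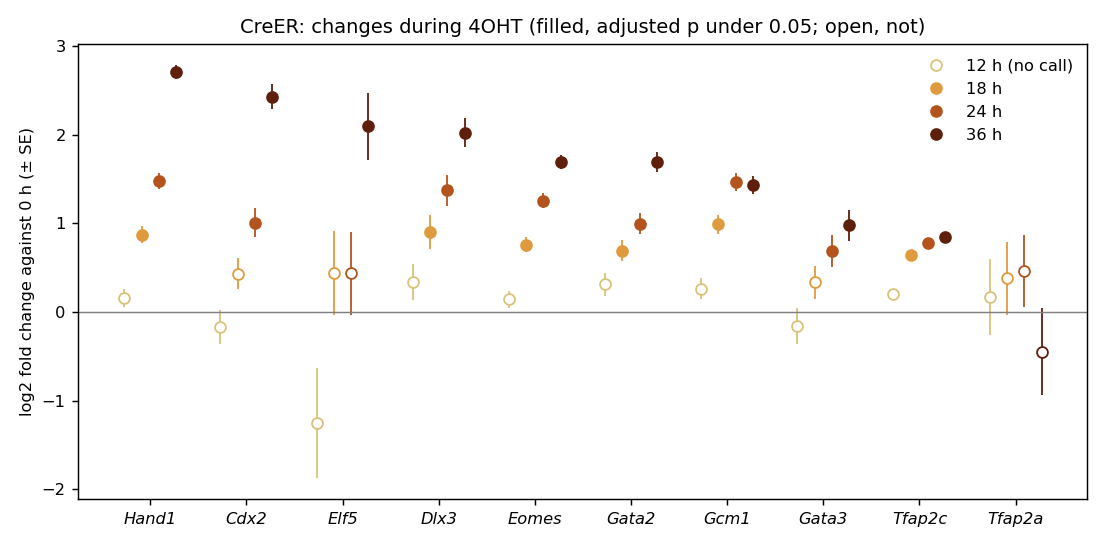
Log2 fold change against 0 h in CreER with its standard error (edgeR, n = 2 at each time), from 12 h (lightest) to 36 h (darkest), with filled circles for an adjusted p under 0.05 and open circles otherwise. *Hand1* and *Cdx2* end highest at 2.71 and 2.43, *Gcm1* stops at 1.47 and 1.43, and *Tfap2a* has open circles throughout.

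The next question was which genes were still moving between 24 and 36 h. The direct contrast of 36 h with 24 h called 6 of the 10 genes higher and 0 lower, where 8.13% of all genes were called higher. Of the 2785 calls over all genes, 1542 were higher and the rest lower. The risers were *Elf5* (log2 fold change 1.65, SE 0.35, edgeR adjusted p = 0.00157), *Cdx2* (1.42, SE 0.12), *Hand1* (1.23, SE 0.070), *Gata2* (0.69, SE 0.099), *Dlx3* (0.65, SE 0.14) and *Eomes* (0.44, SE 0.073), the last 5 with adjusted p from 1.2e-12 to 0.00137. The *Elf5* call ended without replicate 1 of 24 h (1.41, edgeR adjusted p = 0.0502; 0.000223 to 0.017 in the other alternatives), and DESeq2 gave it no adjusted p. Values not called were -0.03 for *Gcm1* (SE 0.089, edgeR adjusted p = 0.856), 0.07 for *Tfap2c* (SE 0.054, 0.452), 0.28 for *Gata3* (SE 0.16, 0.268) and -0.91 for *Tfap2a* (SE 0.46, 0.203).

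Levels were compared between genes per length of merged exons, as RPKM. In CreER at 0 h the order was *Tfap2c* (18.8 ± 0.709, SD, n = 2), *Hand1* (4.69 ± 0.864), *Eomes* (3.08 ± 0.502), *Gcm1* (2.47 ± 0.0856), *Cdx2* (1.21 ± 0.0427), *Gata2* (1.05 ± 0.013), *Dlx3* (0.652 ± 0.0786), *Gata3* (0.576 ± 0.0155), *Tfap2a* (0.131 ± 0.00773) and *Elf5* (0.0511 ± 0.0336), with no overlap between the replicates of neighbours. At 36 h *Hand1* (30.4 ± 0.853) stood next to *Tfap2c* (33.6 ± 2.82), and *Cdx2* (6.51 ± 0.133) overlapped *Gcm1* (6.65 ± 0.375). In O4AID at 0 h *Tfap2c* (23.3 RPKM) and *Eomes* (1.84) led again, and the other 8 genes lay between 0.0324 (*Elf5*) and 0.516 (*Tfap2a*), with overlapping counting intervals between all neighbours but *Gata3* and *Gata2*. *Tfap2c* led the 10 transcripts per length at 0 h and at 24 h in both lines, and at 36 h in CreER.

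Before 4OHT or IAA, with doxycycline already given to O4AID, the lines differed in these genes. With TMM factors set over all 15 libraries, *Gcm1* stood at 4.82 and 5.03 CPM in CreER against 0.0892 in O4AID (4 reads; 95% Wilson interval 0.0347 to 0.229), 55.2 times higher. *Hand1* was 29.5 times higher in CreER (10.4 and 7.97 against 0.312 CPM), *Gata2* 6.39 times (5.54 and 5.59 against 0.870) and *Dlx3* 5.76 times (1.82 and 1.52 against 0.290). *Cdx2* was 2.87 times higher in CreER, *Gata3* 1.83 times, *Eomes* 1.56 times and *Elf5* 1.47 times. *Tfap2c* and *Tfap2a* went the other way, at 0.754 and 0.236 times the O4AID level. For *Elf5* the O4AID value (0.201 CPM) lay between the CreER replicates (0.158 and 0.430), and for the other 9 genes both CreER replicates lay outside the O4AID counting interval. That interval covers counting error only and is narrow in a deep library. The share of all genes that differ in this way was not counted, so the 9 have no background to stand beside. Strain, clone, transgenes and doxycycline differ between the lines and cannot be told apart here, and with 1 O4AID library at 0 h no test was made.

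**Figure D3:**
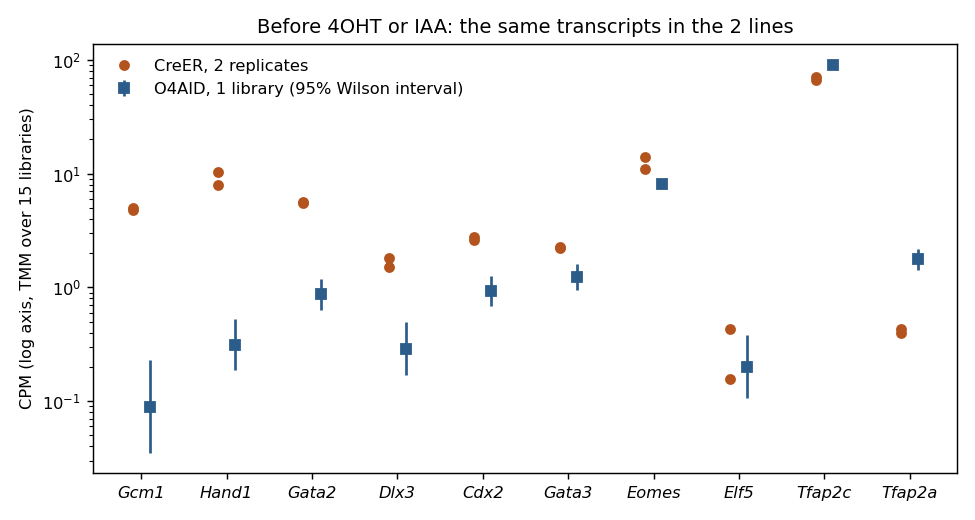
CPM of each gene before 4OHT or IAA (log axis, TMM over 15 libraries) in CreER (circles, 2 replicates) and O4AID (square, 1 library with its 95% Wilson interval), ordered by the ratio between lines. *Gcm1* and *Hand1*, at the left, are 55.2 and 29.5 times higher in CreER, and *Tfap2c* and *Tfap2a*, at the right, are higher in O4AID.

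The question in O4AID was whether the same genes moved within hours of protein loss. These comparisons set single libraries side by side, so they compare the libraries and carry no p-value. By the rule of a log2 ratio of CPM plus 1 of at least 1 in size, the number of the 10 genes past the fold was 0, 0, 0 and 2 (both higher) after 1.5, 6, 10 and 24 h. Of all genes with at least 10 reads over both libraries, 0.0204%, 0.378%, 0.990% and 3.57% were past that fold upwards at these times, and 2.42% were past it downwards after 24 h. *Gcm1* had only 8 reads over the 0 h and 10 h libraries, so 9 of the 10 genes could be counted at 10 h. The 24 h genes were *Gata2* (2.09, 95% counting interval 1.83 to 2.32) and *Cdx2* (1.00, 0.72 to 1.27), and *Hand1* (0.97), *Gata3* (0.89) and *Gcm1* (0.86) stood just inside the limit. Adding 1 CPM shrinks ratios of genes this low, so plain ratios of normalised counts with exact binomial intervals, which cover counting error only, are given next.

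*Gata2* stood at 0.826, 1.72, 1.55, 1.66 and 6.78 CPM at 0, 1.5, 6, 10 and 24 h (39, 77, 64, 68 and 323 reads). Its ratio to 0 h was 2.09 at 1.5 h (95% exact interval 1.40 to 3.15), a step that held at 6 and 10 h, and 8.21 (5.88 to 11.8) at 24 h. From 1.5 to 6 h the ratio was 0.899 (0.635 to 1.27), so the early step rests on the 39 reads of the single 0 h library. Every later library lay above the 0 h library, and the step from 10 to 24 h alone was 4.08 times (3.13 to 5.38).

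*Dlx3* was higher from 6 h. It had 13, 19, 51, 53 and 50 reads at the 5 times, or 0.275, 0.425, 1.23, 1.29 and 1.05 CPM. Its ratios to 0 h after 6, 10 and 24 h were 4.48 (2.40 to 8.98), 4.70 (2.53 to 9.40) and 3.81 (2.04 to 7.65), with overlapping intervals.

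*Gata3* and *Cdx2* were higher from 10 h. *Gata3* stood at 1.17, 0.984, 1.52, 2.37 and 3.00 CPM in order of time, with a ratio to 0 h of 2.03 at 10 h (1.45 to 2.89) and 2.58 at 24 h (1.88 to 3.58). *Cdx2* stood at 0.889, 1.16, 1.23, 1.73 and 2.79 CPM, with ratios of 1.95 (1.31 to 2.93) and 3.14 (2.20 to 4.55). At 24 h, *Cdx2* in O4AID had about the CPM that CreER cells had before treatment, each scaled within its own line.

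*Hand1* and *Gcm1* were higher at 24 h. *Hand1* had 14, 13, 15, 23 and 73 reads, and its 24 h ratio was 5.17 (2.89 to 9.92). *Gcm1* had 4, 9, 6, 4 and 46 reads, and its 24 h ratio was 11.4 (4.16 to 43.6), of which the step from 10 to 24 h was 9.88 times (3.61 to 37.8). At 1.53 and 0.966 CPM, both stayed below every CreER library at 0 h, where *Hand1* had at least 8.15 CPM and *Gcm1* at least 4.89.

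The other genes stood near or below their 0 h level by 24 h. *Eomes* stood at 7.65, 7.52, 9.75, 9.21 and 8.21 CPM, with a ratio of 1.27 at 6 h (1.10 to 1.47) and 1.07 at 24 h (0.928 to 1.24). *Tfap2c* stood at 85.7, 91.7, 114, 111 and 78.3 CPM, above 0 h at 6 h (1.33, 1.28 to 1.39) and below it at 24 h (0.913, 0.873 to 0.955). *Tfap2a* had 79, 56, 45, 51 and 55 reads and a 24 h ratio of 0.690 (0.480 to 0.986), and *Elf5* had 7 to 12 reads throughout. Intervals lay above no change for 2, 4, 6 and 6 genes after 1.5, 6, 10 and 24 h, and below it for 0, 1, 0 and 2. Deep libraries put such intervals on one side for many genes, and of all genes with enough reads 15.3%, 21.6%, 24.4% and 31.8% had theirs above no change and 15.4%, 21.0%, 24.7% and 30.6% below it. The median log2 ratio of CPM plus 1 over the 10 genes was 0.07, 0.23, 0.32 and 0.77 at the 4 times, beside 0.00, 0.00, 0.00 and 0.01 over all genes. As a yardstick for spread that single libraries cannot give, CreER replicates of one time differed by up to 0.13 on the log2 scale for *Gcm1*, 0.17 for *Tfap2c*, 0.30 for *Gata2*, 0.33 for *Eomes*, 0.37 for *Dlx3*, 0.38 for *Hand1*, 0.50 for *Cdx2*, 0.50 for *Gata3*, 0.84 for *Tfap2a* and 1.45 for *Elf5*. Of the ratios whose interval lay to one side, those of *Tfap2c* at 1.5 h (log2 0.10) and 24 h (-0.13), *Eomes* at 10 h (0.27) and *Tfap2a* at 6 h (-0.62) and 24 h (-0.54) were within that spread, and *Eomes* at 6 h (0.35) was barely past it. Past both the interval and the spread were 1, 4, 5 and 6 genes upwards and 0 downwards. This double count was not made over all genes, so it has no share to stand beside. The spread also comes from another line with other read numbers, for *Gcm1* 122 to 429 reads in CreER against 4 to 46 in O4AID.

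**Figure D4:**
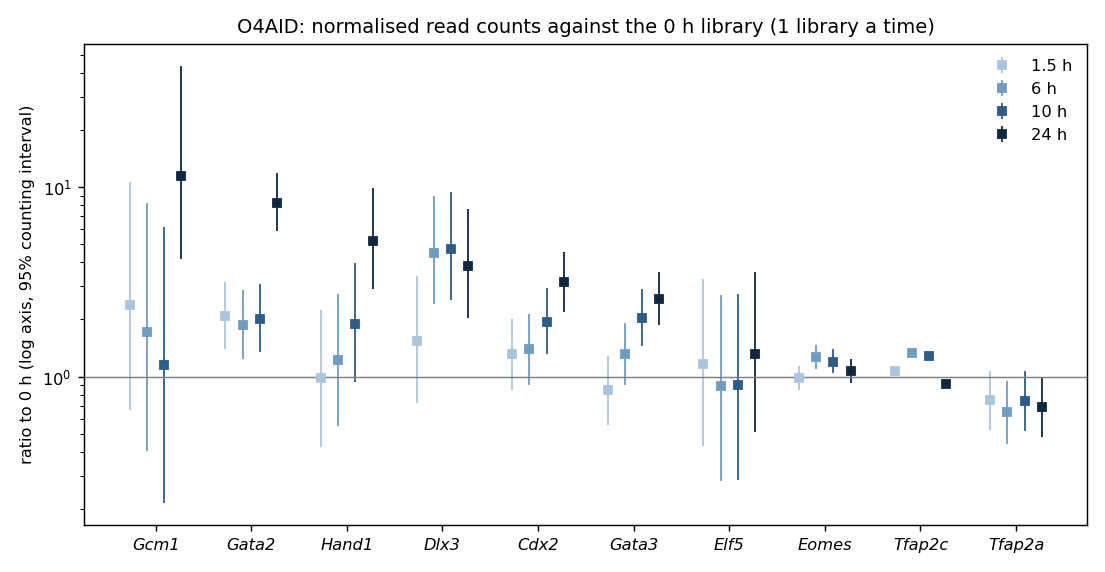
Ratio of normalised reads to the 0 h library in O4AID (log axis, 1 library a time, 95% exact interval for counting error) at 1.5 h (lightest) to 24 h (darkest), ordered by the 24 h ratio. *Gcm1* (11.4) and *Gata2* (8.21) end highest at 24 h, *Dlx3* is at 4.48 by 6 h, and *Tfap2c* lies below 1 at 24 h.

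At 24 h, the time shared by both lines, the changes were set side by side as differences of log2 CPM plus 1 from 0 h. *Gata2* differed most in size, at 0.90 and 0.87 in the CreER replicates and 2.09 in O4AID, a difference of 1.20. *Eomes* came next in the other direction, with 1.21 and 1.18 in CreER and 0.09 in O4AID, a difference of -1.10. *Tfap2c* was 0.78 and 0.74 in CreER and -0.13 in O4AID. Values for *Gata3* (0.68 and 0.30 against 0.89) and *Cdx2* (0.78 and 0.82 against 1.00) were also larger in O4AID. For 7 of the 10 genes the O4AID change was the smaller, but with 0.1 CPM added in place of 1 this held for 4, since *Hand1*, *Gcm1* and *Dlx3*, which start very low in O4AID, crossed over. The sign of the difference for *Eomes*, *Elf5*, *Tfap2c*, *Tfap2a*, *Gata2*, *Gata3* and *Cdx2* was the same with either value. For *Elf5*, though, the O4AID value with 1 CPM added (0.072) lay between the CreER replicates (0.071 and 0.215). The share of all genes with a smaller O4AID change was not counted. Line, route of OCT4 loss and replication all differ between these series and cannot be told apart.

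**Figure D5:**
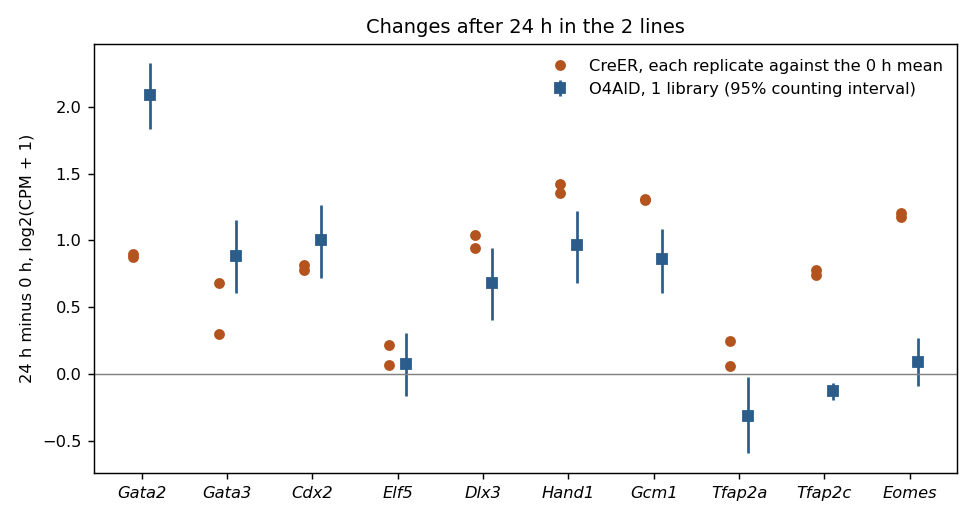
Change from 0 h to 24 h in log2(CPM + 1) for each gene in CreER (circles, each replicate against the 0 h mean) and O4AID (square, 1 library with its 95% counting interval), ordered by the difference between lines. *Gata2* is larger in O4AID (2.09 against 0.90 and 0.87) and *Eomes* is larger in CreER (1.21 and 1.18 against 0.09).

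Other genes of the pathway were taken from lists by role. At 36 h in CreER, 17.2% of all genes were called lower beside the 19.4% called higher, and the median of all genes was 0.01. Of 13 upstream regulators, in the YAP, TEAD, angiomotin, LATS, Notch and FGF routes to *Cdx2*, 10 rose and 2 fell (*Nf2* and *Rbpj*), with a list median of 0.29. *Fgfr2*, the receptor for the FGF4 that sustains trophoblast stem cells, rose from 36.0 ± 0.470 to 81.7 ± 0.940 CPM (log2 fold change 1.18, edgeR adjusted p = 4.53e-16). *Tead4*, the DNA-binding partner of YAP, rose from 10.8 ± 0.473 to 18.8 ± 0.708 CPM (0.80), whereas in O4AID it went from 48.9 CPM before IAA to 18.2 after 24 h. The angiomotins *Amot* (0.64) and *Amotl2* (0.58), which hold YAP at junctions, also rose. In O4AID *Amot* went from 2.44 CPM before IAA to 9.57 after 24 h, the only gene of this list past the fold upwards, as *Tead4* was downwards.

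Of 22 other trophoblast transcription factors, 21 were tested, 14 rose and 3 fell (*Klf5*, *Grhl2* and *Ovol2*), with a list median of 0.56. The largest rises under the naming rule were *Msx2* (log2 fold change 1.48), *Cited1* (1.42), *Elf3* (1.09) and *Ascl2*, needed for the spongiotrophoblast (1.05), with edgeR adjusted p from 9.93e-14 to 1.84e-06. In O4AID at 24 h, *Msx2* (1.57 to 5.39 CPM) and *Cited1* (3.94 to 13.0 CPM) were the 2 of 19 genes with enough reads that were past the fold.

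Of 27 trophoblast effector genes, which encode keratins, junction proteins, placental hormones and the like, 21 were tested and 18 rose, with a median of 0.77, and the other 3 were not called (*Tspan8* -0.60, *Atp1b1* -0.03 and *Plet1* 0.05). *Fabp3* (1.93), the signalling ligand *Wnt7b* (1.89), the endocytic adaptor *Dab2* (1.51) and the homeobox gene *Rhox6* (1.41) rose most under the rule, with edgeR adjusted p from 6.46e-17 to 8.82e-14. The hormone and protease genes *Prl3d1*, *Prl2c2* and *Ctsq*, markers of mature trophoblast, and the syncytin gene *Synb* had at most 3 reads in every CreER library. In O4AID at 24 h, 12 of 22 effectors were past the fold upwards and 0 downwards, and *Rhox6* went from 2.67 to 39.7 CPM while *Wnt7b* went from 0.551 to 1.03.

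Of 12 genes known to hold trophoblast genes silent in ESCs, *Pou5f1* among them, 1 rose and 9 fell at 36 h, with a median of -0.15. Beside *Pou5f1*, the largest falls were in the polycomb genes *Eed* (-0.63, SE 0.045, edgeR adjusted p = 8.83e-12) and *Ezh2* (-0.48, SE 0.087, adjusted p = 0.00149) and the NuRD gene *Mbd3* (-0.51, SE 0.059, adjusted p = 7.57e-08). The single riser, *Nanog* (0.20, adjusted p = 0.000119), was named after its value was seen. In O4AID at 24 h, 2 of the 12 were past the fold downwards, *Sox2* (312.9 to 83.8 CPM) and *Nanog* (1294 to 387 CPM), also named after their values were seen.

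Among 17 paralogues of the 10 factors, 8 were tested, 3 rose and 1 (*Tbx21*) fell at 36 h. *Gata6* (0.796 ± 0.122 to 4.83 ± 0.159 CPM; log2 fold change 2.61, edgeR adjusted p = 6.91e-11) and *Gata1* (1.61 ± 0.351 to 4.80 ± 0.319 CPM; 1.56, adjusted p = 9.31e-08) rose with *Gata2* and *Gata3*. In O4AID at 24 h, *Gata6* had gone from 4.51 to 20.3 CPM and *Gata1* from 1.08 to 7.98. *Cdx1*, named after its value was seen, rose in CreER (1.22 to 2.32 CPM; 0.91, adjusted p = 0.00267) but stood at 99.9 CPM in O4AID cells before IAA and 28.9 at 24 h.

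Several of the 10 genes are expressed by other cell types, so marker lists of those types were counted beside them. Of 8 primitive endoderm markers, 7 were tested at 36 h, *Gata6* and *Dab2* rose, and *Sox7* and *Lama1* fell. Their sum was 89.6 to 92.1 CPM at 0 h and 93.0 to 96.0 at 36 h, and in O4AID 252 CPM at 0 h and 192 at 24 h, with 3 of 7 past the fold upwards (*Gata6*, *Dab2* and *Pdgfra*). *Lama1*, a laminin chain, held 59.7% to 83.4% of that sum in these CreER libraries and 96.0% and 77.2% of it in O4AID. Without *Lama1* the sum was 14.9 to 17.0 CPM at 0 h and 37.5 to 38.1 at 36 h in CreER, and 10.00 CPM at 0 h and 43.9 at 24 h in O4AID. Of 8 mesoderm markers, a lineage that also uses *Eomes*, *Hand1* and *Gata2*, 6 were tested, *Foxf1* rose and *Mixl1* fell, and the sum was 6.16 to 6.98 CPM before 4OHT and 6.31 to 7.45 by 36 h. The sum of 6 surface ectoderm markers was 0.281 to 0.676 CPM at 0 h and 0.827 to 0.965 at 36 h, with *Krt5* and *Krt6a* at 3 reads or fewer in every CreER library. Of 6 germ cell markers, *Dazl* and *Dppa3* fell. The part of these cell types in the rises above was not tested.

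The genes whose course was most like that of a factor were found over all 15 libraries, as the Pearson correlation of log2 CPM plus 1 after subtracting each line's 0 h level, among 12732 genes with a mean of at least 1 CPM in each line. The libraries share their 0 h baseline and their times, so the values describe likeness only. Closest to *Cdx2* were *Pik3c2a* (r = 0.981), *Nuak1* (0.977) and *Fbxo21* (0.971), and closest to *Gata3* were *Fgfr1* (0.957), *Sept9* (0.952) and *Slc5a3* (0.947). Closest to *Tfap2c* were *Plcd1* (0.969), *Shroom3* (0.963) and *Tacc2* (0.958). *Hand1*, which itself had a mean under 1 CPM in O4AID, was closest to *Large2* (0.982), *Mgrn1* (0.982) and *Fabp3-ps1* (0.980), a pseudogene of *Fabp3* that may share reads with it.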

How the data were processed

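RNA-seq was analysed in 10 CreER and 5 O4AID libraries, grouped by the sample labels. The authors depleted ribosomal RNA and sequenced directional paired-end libraries. The submitters' processing notes name Trim Galore 0.1.4, TopHat2 2.1.0, featureCounts 1.5.1 and the GRCm38/mm10 build. Strand and multimapping settings are not given in the sources used here, and *Gata3*, *Eomes* and *Tfap2a* overlap other genes, none of which held more than 18 reads in a library. The deposited files hold raw read counts per gene. A deposited table of the same counts after TMM scaling was not used.

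The 92 spike-in entries held 0 reads and were left out. CreER counts were tested with edgeR 4.0.16 (quasi-likelihood, filterByExpr, TMM, prior count 0.125, all 10 libraries in 1 fit, Benjamini-Hochberg over 18969 genes), with DESeq2 1.42.0 as an alternative. The edgeR fit was tried on simulated counts with known changes, for 36 h against 0 h only. The O4AID intervals were tried on simulated counts with a known ratio. Other steps were not tried on simulated data. Each SE of a log2 fold change was derived from the test, as its absolute value divided by the square root of the quasi-likelihood F statistic. CPM were scaled by TMM within a line, and RPKM divided them by merged exon length. O4AID ratios had 1 CPM added, with 95% Wilson intervals carried to the ratio. The exact binomial intervals of plain ratios were added after the data were seen. Reads carry no molecular identifiers, so intervals cover counting error only. The 10 genes and all lists were chosen with earlier results of these data known. Genes named from a list were the up to 4 with the largest CreER change at 36 h among those called with a mean of at least 50 reads, with genes behind counts of 5 or fewer also named after their values were seen, and 3 nearest genes were named for each of *Cdx2*, *Hand1*, *Gata3* and *Tfap2c*.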

Additional observations from a re-analysis of the deposited data

Results flagged for a closer look

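At 24 h, 2 genes stood above 0 h in both CreER replicates and below it in the single O4AID library, with the O4AID counting interval below no change. Both O4AID plain ratios were within the largest gap between CreER replicates of one time. The difference between lines was not tested, since O4AID has 1 library at each time. *Tfap2c* was 0.78 and 0.74 above 0 h in CreER (log2 of CPM plus 1) and -0.13 in O4AID, a difference of -0.89. With total-count scaling the O4AID value of *Tfap2c* was -0.046. *Tfap2a* was 0.06 and 0.25 in CreER, where edgeR did not call it, and -0.31 in O4AID, a difference of -0.47.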

How the results depend on the processing

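In CreER, 463 values of called genes were recomputed under other scalings, filters, tools or libraries, of which 459 stayed called in the same direction, 4 lost the call and 0 reversed. Many of these left out a library of a time outside the comparison, which hardly moves its fold change. The *Elf5* value between 24 and 36 h without a DESeq2 adjusted p was not counted. The count at 12 h was 1 (*Tfap2c*) in place of 0 with no filter, and 0 to 1 with any 1 library left out. *Tfap2c* at 12 h had an edgeR adjusted p of 0.0151 with no filter, 0.0365 or 0.0372 without a 36 h replicate, and 0.0605 to 0.761 in the other alternatives. The 9 values that reversed belonged to changes that were not called. With 1 library left out, log2 fold changes turned for *Cdx2* (-0.42 to 0.077), *Hand1* (-0.030 to 0.35) and *Eomes* (-0.026 to 0.31) at 12 h, *Elf5* (-0.055 to 1.37) and *Tfap2a* (-0.11 to 0.72) at 18 h, *Elf5* (-0.055 to 1.37) at 24 h, and *Gcm1* (-0.095 to 0.023) and *Tfap2c* (-0.022 to 0.15) between 24 and 36 h. Total-count scaling turned *Tfap2c* between 24 and 36 h (-0.040), shifted the median of all genes there by -0.10, and left 682 of 3887 calls higher in place of 1542 of 2785. It left 31 of 84 calls higher in place of 49 of 75 at 12 h, 2277 of 3714 in place of 2084 of 4089 at 24 h, and 2696 of 7498 in place of 3686 of 6948 at 36 h. The count of called members was the same in each of those comparisons. DESeq2 called 956 genes at 18 h, 2523 at 24 h and 1606 between 24 and 36 h in place of 1616, 4089 and 2785, and no filter gave 222 in place of 75 at 12 h. Calls over all genes also moved by more than 1.5 times with 1 library left out. At 12 h the 75 became 218 without replicate 1 of 0 h, 8 or 12 without replicate 1 or 2 of 12 h, and 169 or 165 without replicate 1 or 2 of 36 h. At 18 h the 1616 became 739 without replicate 2 of 0 h and 582 or 814 without replicate 1 or 2 of 18 h. Without replicate 1 or 2 of 24 h, the 24 h count was 2470 or 2343, and that between 24 and 36 h was 1540 or 1491.

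Deviations of same-numbered CreER replicates from their time means correlated between times by -0.041 to 0.078, so the numbers do not pair the libraries. With the number as a replicate block, 0, 6, 8 and 9 of the 10 genes were called at 12, 18, 24 and 36 h and 6 between 24 and 36 h.

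O4AID counts past the fold depend on the value added. With 0.1 CPM added they were 0, 1, 1 and 6 at 1.5, 6, 10 and 24 h, with 5 CPM 1 at 24 h, and with none 2, 1, 3 and 6, all upwards. Of all genes with enough reads, 1.17%, 2.57%, 4.13% and 9.13% were past the fold upwards with 0.1 CPM, 1.30% at 24 h with 5 CPM, and 3.31%, 4.75%, 6.74% and 11.7% with none. The side by side count of 7 was 4 with 0.1 CPM. The 1.5 h library as reference gives no value for the 1.5 h comparison. Of the O4AID log2 ratios of single genes recomputed under the alternatives, 175 stayed within their counting interval and 55 moved outside it. Depth limits *Elf5* and *Tfap2a* in CreER and *Gcm1*, *Hand1*, *Dlx3* and *Elf5* in O4AID before 24 h.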
